A study of Mus musculus with 9 samples.

Results

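The genes described here are 34 genes of glycolysis and of the response to low oxygen, followed from wild-type to Lim1 mutant renal vesicles of the mouse. They were found through the array's probe sets whose only gene symbol was on the list, and the probe set of highest mean over the 9 arrays stood for each gene. Such a probe set existed for 32 of the 34 genes, with 77 probe sets in all of the 45101 on the array. Eno1 and Gpi1 were not analysed here. Gapdh had control probe sets alone, which stayed out of the fit, so 31 genes were tested. By role the list held 2 glucose transporters, 17 glycolytic enzymes (14 tested), 2 regulators of flux, 11 hypoxia-induced genes and 2 HIF alpha subunits.

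A renal vesicle is the epithelial ball from which a nephron grows, and Lim1 (today Lhx1) is the gene of a homeodomain transcription factor active in it. Vesicles were cut by laser from E12.5 kidneys, about 30 to 50 per sample, and their RNA was amplified in 2 rounds and put on Affymetrix arrays. There were 5 wild-type and 4 Lim1 mutant samples, described as biologically independent. Strain, allele, zygosity and the embryos behind a sample are not given in these sources, and the kit for RNA purification is named for mutant array 4 only.

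Glycolysis turns glucose into pyruvate, and lactate dehydrogenase interconverts pyruvate and lactate. At normal oxygen, prolyl hydroxylases of the Egln family mark HIF alpha subunits for destruction. When oxygen falls this stops, and the stabilised factor switches on glucose transporters, glycolytic enzymes, angiogenic signals such as Vegfa and feedback genes such as Egln3. HIF binds DNA at a short core that contains the letters ACGTG or GCGTG. Nephron progenitors of the embryonic kidney are known for a high rate of glycolysis.

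The HIF core was searched in the promoters because the choice of genes used no sequence. RefSeq promoter windows (GRCm38.p6, 250 bases before to 50 after a start) were matched by symbol for 29 of the 32 genes, all but Slc2a3, Ndrg1 and Epas1. On either strand, ACGTG occurred in a window of 22 of the 29 genes (75.9%). It occurred in 28.7% of 10602 genes with a tested probe set and in 23.2% of 17492 protein-coding genes. Of the hypoxia-induced genes 9 of 10 held it, and of the glycolytic enzymes 10 of 15. The other form of the core, GCGTG, also searched on both strands, occurred in 20 of the 29 genes (69.0%) and in 54.6% of genes with a tested probe set. Lists of this kind hold genes known as HIF targets, so these shares describe the list and are no result of the arrays.

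The 250 bases before the start are printed for 4 genes, with ACGTG or its reverse complement in capitals. Egln3 and Ankrd37 are the hypoxia-induced genes with the lowest p-values among those below 0, and Ldha and Pgk1 are bright enzymes with little spread after normalisation. They lie at chr12:54203875-54204124 (minus strand), chr8:45999851-46000100 (minus strand), chr7:46845554-46845803 (plus strand) and chrX:106186850-106187099 (plus strand).
Egln3 promoter: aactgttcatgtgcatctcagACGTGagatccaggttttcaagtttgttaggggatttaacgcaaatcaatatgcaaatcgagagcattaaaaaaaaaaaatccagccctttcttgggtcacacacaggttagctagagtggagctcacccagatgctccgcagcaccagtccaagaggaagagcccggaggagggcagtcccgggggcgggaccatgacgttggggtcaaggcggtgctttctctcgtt
Ankrd37 promoter: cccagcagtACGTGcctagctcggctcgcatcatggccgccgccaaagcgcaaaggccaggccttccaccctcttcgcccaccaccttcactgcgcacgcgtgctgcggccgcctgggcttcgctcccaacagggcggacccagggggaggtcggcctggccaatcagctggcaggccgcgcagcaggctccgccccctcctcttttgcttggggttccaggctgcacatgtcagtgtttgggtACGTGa
Ldha promoter: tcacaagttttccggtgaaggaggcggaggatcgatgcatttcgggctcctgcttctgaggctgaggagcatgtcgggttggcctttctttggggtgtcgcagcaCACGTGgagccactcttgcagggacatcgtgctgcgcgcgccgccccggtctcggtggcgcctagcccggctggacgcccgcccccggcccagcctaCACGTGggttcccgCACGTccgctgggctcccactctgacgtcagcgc
Pgk1 promoter: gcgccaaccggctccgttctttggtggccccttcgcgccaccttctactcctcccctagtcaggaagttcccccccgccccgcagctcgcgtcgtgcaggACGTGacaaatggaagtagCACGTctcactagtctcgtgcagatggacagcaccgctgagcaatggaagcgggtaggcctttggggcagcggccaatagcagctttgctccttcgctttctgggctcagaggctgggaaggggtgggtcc
The form GCGTG was left in lower case. The window of Ankrd37 holds 2, both within the printed bases. The window of this Ldha start also holds 2, but both lie after the start and are not printed. In the ACGTG form, Egln3 has 1 core, 229 bases before the start. Ankrd37 has 2, at 241 and 6 bases, and Pgk1 has 2, at 150 and 131 bases. Ldha has 3 stretches in capitals, at 145, 48 and 34 bases, and the cores of the first and second read on both strands and overlap. The window of the other Ldha start has no ACGTG. Binding at these letters was not measured.

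None of the 31 tested genes passed the test between mutant and wild-type vesicles. Their log2 differences in signal (mutant minus wild type) lay above 0 for 12 genes and below 0 for 19, with a median of -0.14 and a range from -2.37 to 1.84. Over all 13226 tested genes the median was 0.074. The lowest adjusted p among the 31 was 0.588 (limma, Benjamini-Hochberg over 27022 probe sets). The background was low as well. Of all tested probe sets 0.0333% passed (0.0148% higher and 0.0185% lower in mutants), and of all tested genes 0.0529% (0.0227% higher and 0.0302% lower).

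An unadjusted p under 0.05 was found for 3 of the 31 genes, Egln3, Ankrd37 and Ndrg1. The share over all tested genes was 7.73%, and over all probe sets 6.67%. Signals of the groups did not overlap for 1 of the 31, Ndrg1, which was higher in the mutants. Over all tested genes 2.93% did not overlap (2.09% higher and 0.839% lower), and over all probe sets 2.39% (1.66% and 0.725%). Both of the list's shares, with so few genes, are near the background. Arrays of this design were simulated with independent normal values per probe set, and so without effects shared across an array. There the test found 1 of 50 true differences of size 1 on the log2 scale and 25 of 50 of size 2. At sizes 3 and 4 it found 32 and 41 of 50, and it made 9 false calls. A count of 0 therefore does not show that the groups were alike.

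**Figure D1:**
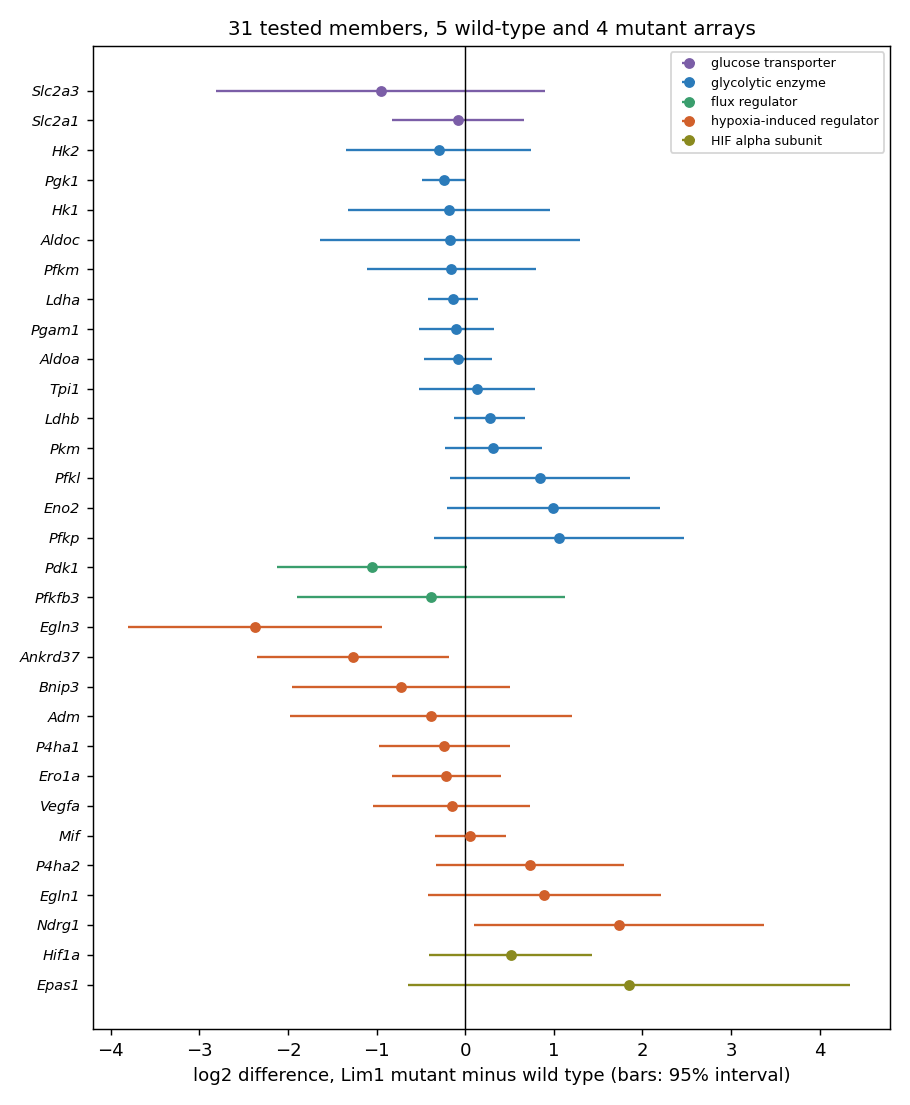
Log2 difference in signal (mutant minus wild type, horizontal axis) of the 31 tested genes by role, with 95% intervals from limma (5 wild-type and 4 mutant arrays). Before adjustment the intervals of Egln3, Ankrd37 and Ndrg1 leave out 0, and Pgk1 has an interval from -0.49 to 0.0066.

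The labels and arrays were checked first. Lhx1 read 2327 to 17587 on wild-type arrays and 6.88 to 10.5 on mutant arrays at the dimmer of its 2 probe sets (adjusted p = 0.00329), and the brighter one overlapped between groups. The summed signal of 10 renal vesicle genes was 106809 to 273234 for wild type, lowest on array 3, and 135989 to 152747 for mutants. Of these genes 4 had differences above 0 and 6 below (median -0.42), none passed, and Fgf8 was dim, at 150.2 to 934 over all arrays. Wild-type arrays 1 and 3 correlated least with the other arrays across probe sets, with a mean r of 0.859 and 0.849 against 0.877 to 0.901. They also held the lowest value for 6 and 8 of the 31 genes. Wild-type array 5 held it for 4, mutant arrays for 2 to 5, and wild-type arrays 2 and 4 for none.

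Genes listed as markers of other cell types gave signal on all arrays, which alone does not show that such cells were captured. The summed signal of 15 endothelial genes was 15499 to 33054 for wild type and 6167 to 8120.2 for mutants, and without Cldn5 it was 5552 to 23809 and 5557 to 6813. All 13 tested endothelial genes had differences below 0 (median -0.65). The 1 that passed was Cldn5 (limma, adjusted p = 0.0045), the gene without which the sums overlapped. The sum of 8 erythroid genes was 50492 to 156701 and 33664 to 119601. The sum of 13 stroma genes was 27057 to 177310.0 and 31705 to 71349.8, and all 3 sums were highest on wild-type array 3. So was that of 10 macrophage genes, at 24186 there and 894 to 5786 on the other 8 arrays. The sum of 14 ureteric bud genes was 16489.8 to 74389 for wild type, highest on array 2, and 7870.4 to 17603 for mutants, and 9 of its 11 tested genes had differences below 0 (median -0.52). Their part in the values below was not tested. In captured tissue, fewer cells of a type and less RNA per cell cannot be told apart.

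Glucose enters cells through facilitative transporters, and both of those on the list overlapped between groups. Slc2a1 (GLUT1), the widespread transporter of embryonic tissue, read 8894, 7829, 23020.3, 11055 and 9826 on wild-type arrays 1 to 5 and 7045, 16042, 11697 and 9113 on mutant arrays 1 to 4. Wild-type array 3 and mutant array 2 were the high ones. The log2 difference was -0.082 ± 0.34 (SE, adjusted p = 0.981), and the other 2 probe sets gave -0.016 and -0.33. Slc2a3 (GLUT3), a high-affinity transporter best known from neurons, read 135, 590.5, 2318, 1017 and 156 for wild type and 189, 153, 1101 and 110.1 for mutants. Its high arrays were wild-type 3 and 4 and mutant 3, and the same 3 were high at its second tested probe set. The difference was -0.95 ± 0.85 (adjusted p = 0.881).

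The glycolytic enzymes had differences on both sides of 0. Of the 14 tested, 6 lay above 0 and 8 below, with a median of -0.091 and a range from -0.30 to 1.06, and none passed or separated the groups. Their median within-group SD was 0.56 on the log2 scale, against 0.64 over all tested genes and 0.33 over the 1323 genes of highest mean. The SD ran from 0.14 to 1.08 between enzymes. Bright trunk enzymes such as Ldha and Pgk1 were at the low end, and the dim isoforms Aldoc and Pfkp at the high end.

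Ldha, the muscle-type subunit of lactate dehydrogenase and a classical HIF target, read 37092, 32102, 31854, 35579 and 29830.2 for wild type and 26045, 33342, 32781 and 32165 for mutants. Apart from mutant array 1, all mutant values lay inside the wild-type range. The difference was -0.14 ± 0.13 (adjusted p = 0.886), with a 95% interval from -0.42 to 0.14, or mutant to wild-type ratios from 0.748 to 1.1. Ldhb, the heart-type subunit, read 32944, 31086, 19807, 26826 and 24479.8 for wild type and 31904, 35515, 34467 and 29739.9 for mutants. The mutants lay at the upper end of the wild-type range or just above it. The difference was 0.28 ± 0.18 (adjusted p = 0.826), and the other 3 Ldhb probe sets gave 0.47, 0.28 and 0.18, of which the first had an unadjusted p of 0.0197 (adjusted p = 0.703).

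The log2 ratio of Ldha to Ldhb within an array was 0.07 to 0.65 for wild type and -0.36 to 0.10 for mutants. It differed by -0.42 ± 0.14 (SE), with an exact permutation p of 0.0238 (two-sided, over every split of the 9 arrays). After Benjamini-Hochberg adjustment over the 10 pairs of related genes compared, that p was 0.159, and no pair passed. Such a ratio can show unequal change only, never the level of one gene against the other.

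Pgk1, phosphoglycerate kinase, catalyses the first step of the pathway that makes ATP. It read 94960.2, 44999.7, 90866, 81659.8 and 63248 for wild type and 44059, 67946, 77955 and 58534 for mutants. Wild-type array 2 and mutant array 1 were low, and they were also the arrays whose brightest probe set was dimmest, at 86331 and 97439.5 against 128476 or more elsewhere. On the quantile-normalised scale the difference was -0.24 ± 0.11 (adjusted p = 0.755), with an interval in ratio from 0.714 to 1. The other 2 probe sets gave -0.23 and -0.32.

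Of the other bright enzymes, Aldoa, Tpi1 and Pgam1 had differences smaller than the log2 SD of either group. Aldoa, the aldolase of most embryonic cells, was at 17926 ± 2199 for wild type (SD, n = 5) and 17105 ± 3538 for mutants (n = 4), and its 5 probe sets gave differences from -0.083 to 0.14. Tpi1, which interconverts the triose phosphates, was at 10418 ± 3737 and 11178 ± 2937, and its 3 probe sets gave -0.015 to 0.13. Pgam1, the mutase that acts after Pgk1, was at 18005 ± 3238 and 16849 ± 2611 (difference -0.10 ± 0.19, adjusted p = 0.952). Pkm, the pyruvate kinase that ends the pathway, was at 5050.1 to 6881 and 5302 to 10469.7, with mutant array 2 highest (difference 0.32 ± 0.25, adjusted p = 0.861). Its log2 SD was 0.15 for wild type and 0.41 for mutants.

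Gapdh, which oxidises glyceraldehyde phosphate, was read by 3 control probe sets along its transcript. The 3 prime one gave 45469, 40032, 22725, 44519.5 and 41458 for wild type and 39408, 71679.7, 66871 and 49739 for mutants, a log2 difference of 0.52 with an exact permutation p of 0.0397, unadjusted. The middle and 5 prime ones gave 0.52 and 0.55, with exact permutation p of 0.5 and 0.508. Wild-type array 3 was lowest at all 3 probe sets. The ratio of 3 prime to 5 prime signal, which rises when amplified RNA is short, was 87.6 on that array and 12.4 to 61.4 on the other 8, and its part in the differences was not tested.

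Hexokinases trap glucose in the cell. Hk2, the inducible form and a HIF target, read 5471, 5607, 1160.4, 6715 and 5136 for wild type and 3135, 2804, 3809.5 and 3840.3 for mutants. Wild-type array 3 lay below every other array, and the other 4 wild-type arrays lay above all mutants. The difference was -0.30 ± 0.47 (adjusted p = 0.94), and without wild-type array 3 it was -0.75 (adjusted p = 0.586, and 0.586 to 0.999 over all alternatives). Hk1, the constitutive form, was at 522 to 2979.8 and 732 to 2492 (difference -0.18 ± 0.52, adjusted p = 0.971).

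Phosphofructokinase commits sugar to glycolysis and is built of liver, muscle and platelet subunits. The liver subunit Pfkl was at 583 to 2081 for wild type and 1527 to 3347 for mutants (difference 0.85 ± 0.46, adjusted p = 0.795), but its other 2 probe sets gave -0.059 and -1.07. The platelet subunit Pfkp was at 104 to 1288 and 327 to 1003 (difference 1.06 ± 0.64, adjusted p = 0.811). Its other probe sets, below the filter on dim signals and not tested, gave -0.64 and -0.32. The muscle subunit Pfkm was at 1672 to 3246 and 896 to 2922 (difference -0.16 ± 0.44, adjusted p = 0.97). No subunit separated the groups.

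Eno2 and Aldoc are isoforms best known from nervous tissue, and both were dim. Eno2 was at 117 to 393 for wild type and 334 to 1447 for mutants, with mutant arrays 2 and 4 high (difference 0.99 ± 0.55, adjusted p = 0.795). Aldoc was at 49.3 to 735 and 117 to 501 (difference -0.17 ± 0.67, adjusted p = 0.98).

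Among the regulators of flux, Pdk1 encodes a kinase that inhibits pyruvate dehydrogenase and is a HIF target. It read 428, 1486, 973, 1510.1 and 780.4 for wild type and 218, 587, 564 and 652 for mutants, so that 4 of 5 wild-type arrays lay above all mutants and array 1 lay among them. The difference was -1.05 ± 0.49 (adjusted p = 0.75, exact permutation p = 0.0397 unadjusted). Its other 2 tested probe sets lay on the opposite side of 0, at 0.84 ± 0.62 and 0.44 ± 0.85, so the probe sets disagree on a direction. Pfkfb3, which makes the activator of phosphofructokinase, was at 106 to 1532 and 193 to 860.1 (difference -0.39 ± 0.69, adjusted p = 0.949).

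**Figure D2:**
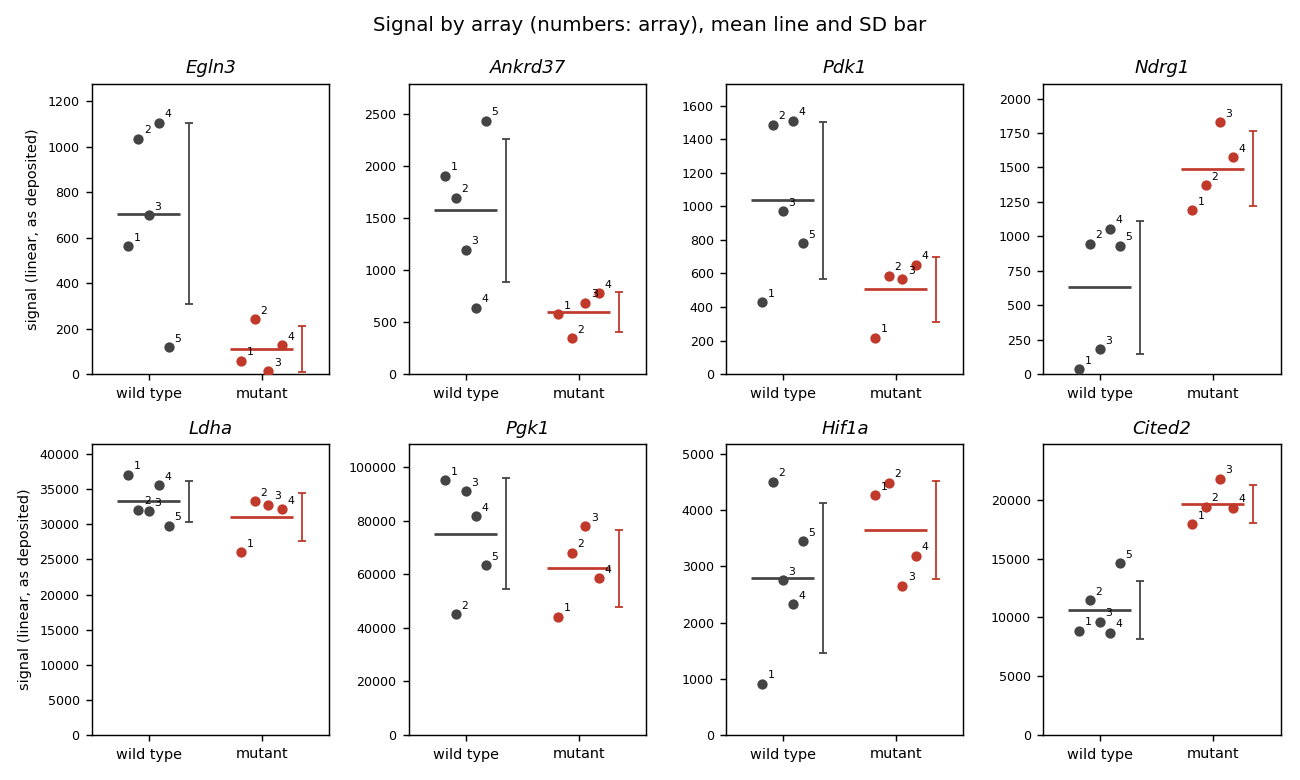
Deposited signal (linear, from 0) on each array for 7 genes of the list and for Cited2, an antagonist of HIF outside it, with array numbers beside the points, lines at group means and bars for the SD (5 wild-type, 4 mutant arrays). All mutant points lie above all wild-type points for Ndrg1 and Cited2, and the groups overlap for the other 6 genes.

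The hypoxia-induced genes spread more widely, in both directions. Of the 11 tested, 4 lay above 0 and 7 below, with a median of -0.22 and a range from -2.37 to 1.74, and none passed. Their median within-group SD was 0.81. Egln3, the prolyl hydroxylase that HIF itself induces, read 563, 1036, 698, 1107 and 119 for wild type and 58.9, 243, 11.8 and 127 for mutants. Of the wild-type arrays 4 lay above all mutants, and array 5 lay among them. The difference was -2.37 ± 0.65, or a wild-type value 5.16 times the mutant value on the scale of log2(value + pseudocount). Its unadjusted p was 0.00381, the adjusted p = 0.588 and the exact permutation p 0.0238. With each array left out in turn the difference stayed between -2.81 and -1.98. The second Egln3 probe set, below the filter on dim signals and not tested, read 27, 98.3, 20.4, 40.1 and 11.1 for wild type and 5.5, 14.6, 284 and 12.6 for mutants, with mutant array 3 highest, and gave 0.11.

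Egln1, the main oxygen sensor of most cells, read 1765, 8944, 999, 7015 and 5018 for wild type and 8318, 3721, 6713 and 9172 for mutants. Wild-type arrays 1 and 3 were the low ones. The difference was 0.89 ± 0.60 (adjusted p = 0.831), but -0.017 without those 2 arrays and -0.29 at the second probe set. The log2 ratio of Egln1 to Egln3 differed by 3.26 ± 1.05 between mutant and wild type (exact permutation p = 0.0317, adjusted over the 10 pairs 0.159).

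Ankrd37, an ankyrin repeat gene known as a direct HIF target, read 1910.4, 1700.1, 1196, 639.9 and 2437 for wild type and 577, 345, 689 and 780.5 for mutants. Here too 4 wild-type arrays lay above all mutants, and array 4 lay among them. The difference was -1.27 ± 0.49, a wild-type value 2.41 times the mutant value (unadjusted p = 0.0255, adjusted p = 0.72, exact permutation p = 0.0476). Bnip3, a mitochondrial protein of mitophagy, was at 836 to 5678 and 739.5 to 2358 (difference -0.73 ± 0.56, adjusted p = 0.861), and at -1.14 without wild-type array 3. Adm, the vasodilator peptide adrenomedullin, was at 55.8 to 949 and 129 to 528 (difference -0.39 ± 0.73, adjusted p = 0.951).

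Ndrg1, a stress-induced gene of epithelia that hypoxia also raises, lay on the other side of 0. It read 35, 946, 180.1, 1054 and 933 for wild type and 1192, 1372, 1828 and 1575 for mutants, with no overlap. The difference was 1.74 ± 0.75 (unadjusted p = 0.0399, adjusted p = 0.737, exact permutation p = 0.0556). Its second tested probe set did not overlap either, with 9.03, 743, 15.2, 754 and 497 against 1293, 1630.3, 2597 and 1359.8 (difference 2.78 ± 0.89, adjusted p = 0.652). The remaining Ndrg1 probe sets, below the filter on dim signals and not tested, overlapped and gave -0.46, -0.48 and 0.24. Wild-type arrays 1 and 3 were the low ones at both tested probe sets. Without them the difference was 0.60 (adjusted p = 0.751, and 0.549 to 0.999 over all alternatives), and without array 1 alone 1.11.

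Vegfa, the growth factor that draws endothelium to the nascent nephron, read 978, 1939, 2423, 2961 and 3108 for wild type and 1556, 2294, 2659 and 1461 for mutants. All mutants lay inside the wild-type range. The difference was -0.15 ± 0.40 (adjusted p = 0.968), with an interval from -1.04 to 0.73, and its dim second probe set gave 0.44. Mif, a cytokine that HIF also induces, was at 45354 ± 12996 and 47615 ± 12793 (difference 0.059 ± 0.18, adjusted p = 0.973).

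P4ha1 and P4ha2 are alpha subunits of the collagen prolyl hydroxylase, and they lay on opposite sides of 0. P4ha1 was at 2053 ± 664 for wild type and 1687 ± 178 for mutants (difference -0.24 ± 0.34, adjusted p = 0.934). P4ha2 was at 4207 ± 2731 and 5879 ± 1756 (difference 0.73 ± 0.48, adjusted p = 0.827). Ero1a, an oxidase that forms disulfide bonds in the endoplasmic reticulum, was at 9366 ± 2997 and 7877 ± 2117 (difference -0.22 ± 0.28, adjusted p = 0.927), and its other probe sets gave -0.18 and 0.78.

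HIF alpha subunits are controlled mainly as proteins, so their transcripts do not report HIF activity. Hif1a read 909.8, 4510.4, 2757, 2330.3 and 3448 for wild type and 4268, 4487, 2658 and 3189 for mutants, with wild-type array 1 low (difference 0.51 ± 0.42, adjusted p = 0.868). Its second tested probe set gave 0.051. Epas1 (HIF2 alpha), best known from endothelium, read 8.13, 512, 5065, 431 and 21.1 for wild type and 1067, 786, 1363 and 1382 for mutants. The 4 mutants lay close together and the wild type spread on both sides of them, with a log2 SD of 2.69 against 0.36. Wild-type array 3, the highest, also had the highest endothelial and stroma sums. Wild-type array 4 had the second highest endothelial sum (25543) and read 431, and the mutants had the lowest endothelial sums. Any link of Epas1 to these sums was not tested. The difference was 1.84 ± 1.14 (adjusted p = 0.815). It was 2.83 without wild-type array 3 (adjusted p = 0.466, and 0.466 to 0.999 over all alternatives) or 1.17 without wild-type array 1. The second Epas1 probe set, below the filter on dim signals and not tested, gave -0.48.

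**Figure D3:**
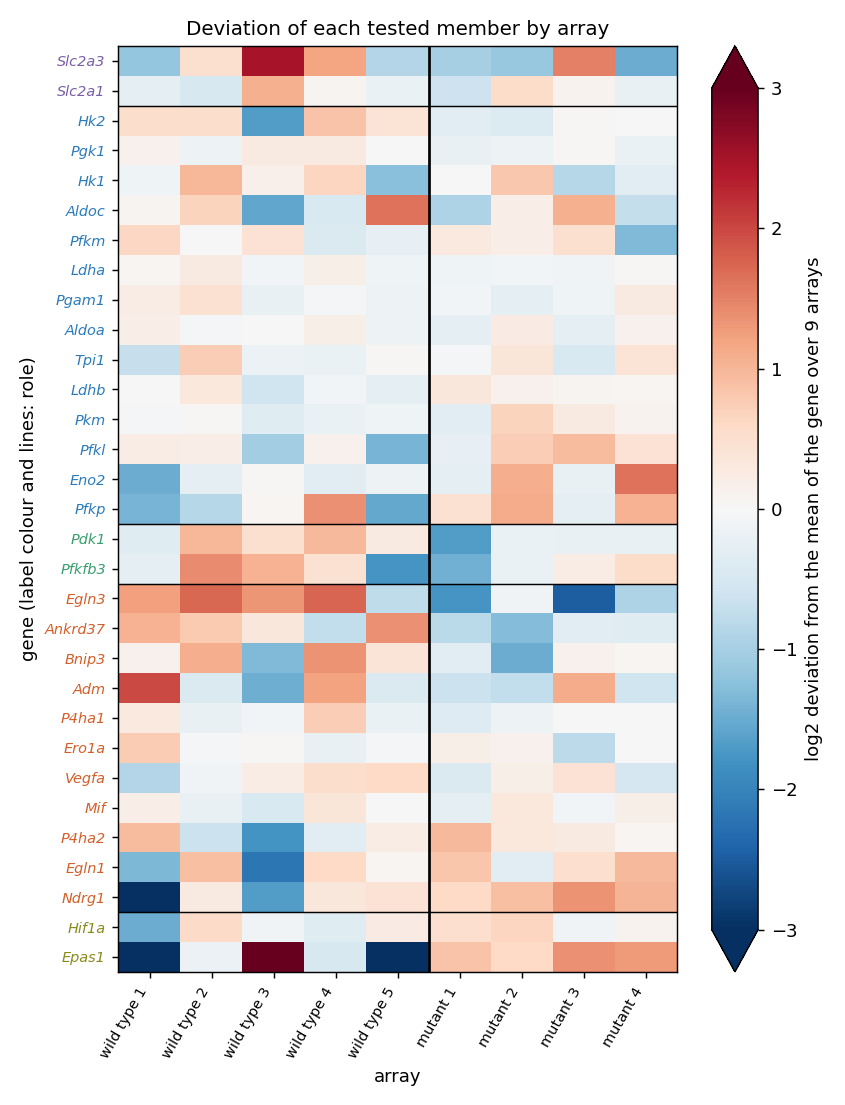
Log2 deviation of each tested gene (rows, by role) from its mean over the 9 arrays (columns), red above and blue below, with colours capped at 3. Pgk1, Ldha, Pgam1 and Aldoa stay pale on all arrays, and Epas1, Ndrg1, Slc2a3 and Egln3 hold the deepest colours.

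Glycolytic enzymes were set beside hypoxia-induced genes on each array, as the median over each set of the log2 deviation of a gene from its own mean. The 14 enzymes lay from -0.15 to 0.24 for wild type and -0.18 to 0.23 for mutants. The 11 hypoxia-induced genes lay from -0.46 to 0.52 and -0.33 to 0.12. Both sets overlapped between groups. Enzymes minus hypoxia-induced genes came to -0.23, 0.27, 0.34, -0.49 and -0.21 on the wild-type arrays and 0.15, 0.33, -0.17 and 0.078 on the mutant arrays. The means were -0.063 ± 0.35 (SD, n = 5) and 0.10 ± 0.21 (n = 4), and their difference of 0.16 was smaller than either SD. For the enzymes, the mean of these array medians was 0.0078 higher in mutants, while the median of the gene differences was -0.091, so the 2 summaries differ in sign.

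**Figure D4:**
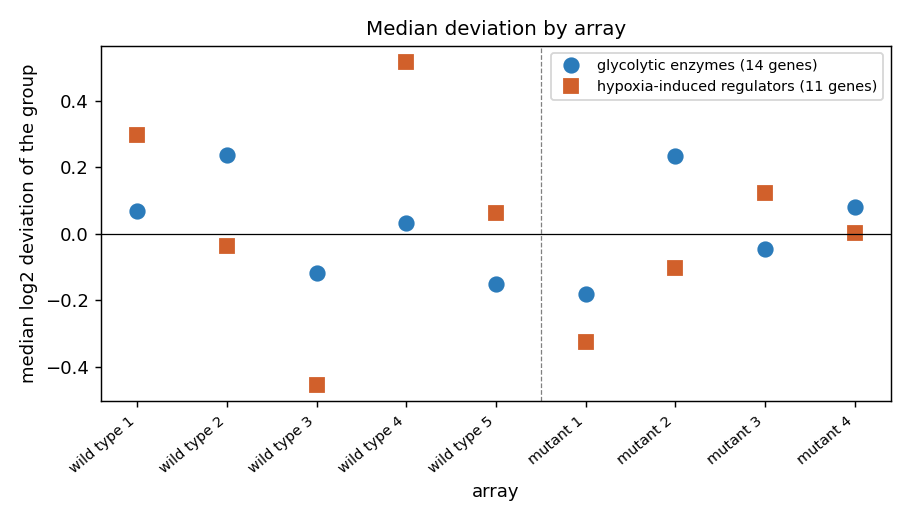
Median log2 deviation (vertical axis) of 14 glycolytic enzymes (circles) and 11 hypoxia-induced genes (squares) on each of the 9 arrays (horizontal axis). Circles stay between -0.18 and 0.24, squares run from -0.46 on wild-type array 3 to 0.52 on wild-type array 4, and neither set separates the groups.

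Of 96 further genes of these pathways, 76 were tested and none passed, with 49 differences above 0, 27 below and a median of 0.15. The lists that follow overlap slightly, and a shared gene counts once in these totals. Of 25 genes of glycolysis and pyruvate metabolism 14 lay above 0 and 11 below (median 0.024). Of 7 pentose phosphate genes 4 lay above and 3 below (median 0.11). Of 12 genes of the HIF machinery 9 lay above and 3 below (median 0.33). Of 33 other hypoxia-induced genes 23 lay above and 10 below, with a median of 0.16, where the 11 of the list had -0.22.

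Unadjusted p-values under 0.05 were found for 3 of the 76, Cited2, Hk3 and Zfp395, the last 2 named after their values were seen. The share over all tested genes was 7.73%. Cited2 encodes a protein that competes with HIF for the coactivators p300 and CBP, and it alone of the 76 had groups without overlap. Over all tested genes 2.93% did not overlap, so neither count exceeds the background share. Cited2 read 8876, 11460.5, 9629.7, 8684 and 14599.5 for wild type and 17932, 19445, 21806 and 19346 for mutants. The difference was 0.91 ± 0.19, a mutant value 1.87 times the wild-type value (unadjusted p = 0.000554, adjusted p = 0.329, exact permutation p = 0.0159), and did not pass. Its dim second probe set was at 118 to 280.4 and 91.2 to 253 and gave -0.10.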

How the data were processed

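The 9 arrays were compared as 5 wild-type and 4 Lim1 mutant samples, grouped by title. The authors deposited 1 linear intensity per probe set and array, made with GCOS per the submitters' processing notes. Its algorithm and version are not stated there. The mean after trimming 2% at each end was 1500 on every array, so the deposited intensities had been scaled. Here they were taken as log2(value + 42.4), where the pseudocount is the 25th percentile of all values, and quantile normalised. Differences on this scale understate those of dim genes. After leaving out 64 control probe sets and those below the 40th percentile of the mean, 27022 probe sets, 56 of them of the list, were tested with limma 3.58.1 in R 4.3.3 (variance trend, two-sided, Benjamini-Hochberg over all 27022). Exact permutation tests ran over every split of the 9 arrays into 5 and 4.

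The 34 genes and the other lists were chosen with earlier results of these data known. Every gene of the list is named, and of other pathway genes those that passed or whose groups did not overlap, beside exceptions marked as such. Symbols came from the platform annotation (34958 probe sets with 1 symbol, 932 with several, 9211 with none). Genes with close copies, such as Gapdh, Pgk1, Aldoa, Ldha and Mif, may share signal. The number of arrays limits the precision, and p-values set each difference against the spread between these samples. The fit was tested on simulated data. Alternatives covered normalisation, filter, pseudocount, variance model, array weights, a replicate block, probe sets averaged per gene and left-out arrays.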

Additional observations from a re-analysis of the deposited data

Results flagged for a closer look

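For 32 genes in 2 genotypes, 8 of 64 groups held an array set apart from its group (Dixon's test, log2 scale). Chance sets apart about 1 group in 20, or 3.2 of 64. In the wild type, Hk2 read 1160.4 on array 3 against 5136 to 6715 on the others, Egln3 read 119 on array 5 against 563 to 1107 on the others, Eno2 read 117 on array 1 against 331 to 393 on the others and Ero1a read 14611 on array 1 against 6993 to 8507 on the others. In the mutants, Slc2a3 read 1101 on array 3 against 110.1 to 189 on the others, Adm read 528 on array 3 against 129 to 151 on the others, Pdk1 read 218 on array 1 against 564 to 652 on the others and Pfkm read 896 on array 4 against 2458 to 2922 on the others.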

How the results depend on the processing

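No gene of the list passed under any alternative run. Over the whole array 9 probe sets passed, 3 to 8 with each array left out in turn, 0 without both wild-type arrays 1 and 3 (2013 at an unadjusted p under 0.05 in limma) and 0 with the replicate number as a block (1756 unadjusted in limma). The block changed no call of the list, and the numbers do not pair the samples (correlation of deviations -0.11 to 0.054 for same-numbered arrays, and 1 of 4 highest with its own number). The median of the enzymes' differences, -0.091 with all arrays, was -0.078 to 0.05 with an array left out, 0.013 with the block and -0.18 with median centring. That of the hypoxia-induced genes, -0.22 with all arrays, was -0.29 to -0.053, -0.25 and -0.33, and 0.059 with probe sets averaged per gene. The contrast of both sets was 0.017 to 0.31 with an array left out.

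Some differences changed sign, none of them past the threshold, and the cause was not tested. Without wild-type arrays 1 and 3 they were 0.15 for Slc2a1, 0.15 for Pfkm, -0.12 for Tpi1, -0.012 for Mif and -0.017 for Egln1. With array weights they were 0.056 for Slc2a1, 0.0059 for Pfkm and -0.068 for Tpi1. With probe sets averaged per gene they were -0.094 for Pfkl, 0.078 for Pdk1, 0.14 for Vegfa and 0.13 for Ero1a. Median centring gave -0.023 for Mif, and the replicate block 0.22 for Aldoc. With an array left out, the ranges that crossed 0 were -0.83 to 0.062 for Adm, -0.18 to 0.0023 for Aldoa, -0.58 to 0.22 for Aldoc, -0.32 to 0.0062 for Ero1a, -0.51 to 0.075 for Hk1, -0.048 to 0.17 for Mif, -0.87 to 0.019 for Pfkfb3, -0.34 to 0.26 for Pfkm, -0.21 to 0.00063 for Pgam1, -0.28 to 0.17 for Slc2a1 and -0.029 to 0.33 for Tpi1. A filter at the 60th percentile left 28 of the 31 genes. Signal over background limits dim genes such as Egln3, Adm, Aldoc and Pfkp.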
